A study of Mus musculus with 24 samples.

Results

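The genes described here encode the ESCRT machinery and the proteins that bring vesicles to the cell surface. They were chosen by name: a list of 36 gene symbols was looked up in the deposited expression table, and all 36 were found among its 21965 genes. They are kept apart by role: ESCRT-0 (3 genes), ESCRT-I (7), ESCRT-II (3), ESCRT-III (11), the ATPase Vps4 with its cofactor (3), syntenin and ALIX (2), and 5 Rab GTPases with Sytl4 and Smpd3 (7). The libraries come from mouse gastrocnemius, the large calf muscle: 4 from a control group and 4 from each of days 1, 3, 5, 7 and 14 after denervation, in which the muscle loses its nerve supply. Strain, sex, age and the way the nerve was cut are not in the labels, and neither is whether the control muscle was operated on. Whether a group's 4 libraries are 4 animals is not in the labels, so the p-values cover the spread among these libraries alone, and that spread may be technical. Dorsal root ganglion neurons are given as the RNA source in the extraction protocol, whereas the tissue label of every library is gastrocnemius. The study concerns extracellular vesicles that denervated muscle sends out, and the question for these genes is when their transcripts moved after denervation.

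ESCRT complexes act in sequence on the endosome. ESCRT-0 gathers ubiquitin-tagged membrane proteins, ESCRT-I and ESCRT-II deform the membrane around them, and ESCRT-III filaments pinch off vesicles into the lumen before Vps4 takes the filaments apart. An endosome filled this way, a multivesicular body, can fuse with the lysosome, a step guided by Rab7, or with the plasma membrane, where the inner vesicles leave as exosomes. Syntenin and ALIX load syndecan-bound cargo, Rab27, Rab35 and Rab11 guide docking or recycling, and the Smpd3 product makes ceramide, a lipid that helps vesicles bud inward. The same ESCRT-III proteins also repair torn membranes and close autophagosomes.

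Library totals ran from 16082846 to 20696900 expected counts, and all 36 genes passed the expression filter that left 14246 genes to test. Levels are given as CPM, counts scaled by library size after TMM, and as the deposited TPM (scaled by library and by transcript length) when one gene is set against another. The words rose, fell and changed are kept for genes for which the edgeR quasi-likelihood test gave a Benjamini-Hochberg adjusted p under 0.05 over all genes tested. TMM holds the bulk of genes level between groups. With library totals alone the median gene moves up by log2 0.61, 0.34, 0.67, 0.81 and 0.78 at days 1, 3, 5, 7 and 14, so directions are relative to the bulk of genes. A member whose called direction turned with library totals is named with that value. Many members that did not pass by TMM passed as higher with library totals, and not all of these are named. Fibre genes dominated every library: the 10 fibre markers summed to between 206000 and 212000 CPM in control and between 51100 and 112000 CPM later, against 1.84 to 8.91 CPM for 10 sensory neuron markers, of which Scn10a and Scn9a were at 0 in all control libraries. Fewer cells of a type and less RNA per cell cannot be told apart in such bulk libraries. Markers of other cells moved with time. Of 8 lymphocyte markers, 8 rose at days 1 and 5, and their sum lay at 125 to 130 and 145 to 158 CPM there, 2.33 to 3.29 in control, 1.78 to 2.01 at day 3, 2.43 to 4.79 at day 7 and 3.28 to 5.46 at day 14. The 6 neutrophil markers summed to 7.62 to 11.4 CPM in control, 39 to 42.9 at day 1, 120 to 131 at day 3, 70.3 to 71.9 at day 5, 25.9 to 29.3 at day 7 and 18.6 to 20.1 at day 14. Of these markers, 6, 6, 6, 5 and 3 rose and 0, 0, 0, 1 and 1 fell at days 1, 3, 5, 7 and 14. The 8 macrophage markers summed to 516 to 523 CPM in control, 1200 to 1230 at day 1, 881 to 909 at day 3, 1400 to 1430 at day 5, 1150 to 1170 at day 7 and 872 to 899 at day 14. The 5 adipocyte markers, 5 of 5 higher at every day, summed to 87.1 to 94 CPM in control, 958 to 991 at day 1, 280 to 305 at day 3, 228 to 236 at day 5, 433 to 456 at day 7 and 239 to 252 at day 14. The 5 erythroid markers summed to 776 to 807 CPM in control, 2860 to 2970 at day 1 and 2150 to 2200 at day 14, and to between 187 and 273 at days 3, 5 and 7. The 6 endothelial markers, 6 of 6 lower at every day, summed to 1840 to 1930 CPM in control and to between 708 and 1140 later. The 6 markers of fibro-adipogenic progenitors summed to 3090 to 3150 CPM in control, were lowest at day 3 (1830 to 1850) and highest at day 14 (4560 to 4610), and the 6 Schwann cell markers summed to 317 to 339 CPM in control and to between 66.5 and 218 later. Single markers of both lists went different ways. Of the progenitor markers, 3, 1, 1, 4 and 3 rose and 2, 5, 5, 2 and 3 fell at days 1, 3, 5, 7 and 14. Of the Schwann cell markers, 3, 0, 3, 1 and 1 rose and 2, 5, 2, 2 and 3 fell. The fibre sum itself was 91700 to 92300 CPM at day 1, 107000 to 112000 at day 3, 78800 to 80400 at day 5, 52700 to 53300 at day 7 and 51100 to 51800 at day 14. Of the 10 fibre markers, 1, 0, 2, 1 and 3 rose and 9, 10, 8, 9 and 7 fell at these days. None of the markers in these 9 lists was at 0 in every library of a group, and their part in the members' changes was not tested.

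Every one of the 36 genes differed somewhere among the 6 groups in the test over all groups, as did 96.7% of all genes tested. At days 3, 5 and 7 the share of members called was within 5 percentage points of that of all genes, at day 1 it was lower and at day 14 higher, with no test of the gap. At day 1, 16 members rose, 5 fell and 15 did not pass, against 74.3% of all genes called (38.1% higher, 36.2% lower). At day 3, 23 rose, 3 fell and 10 did not pass, against 70.2% called (34.5% higher, 35.7% lower). At day 5, 18 rose, 7 fell and 11 did not pass, against 74.3% called (38.5% higher, 35.8% lower). At day 7, 19 rose, 9 fell and 8 did not pass, against 76.9% called (40.2% higher, 36.7% lower). At day 14, 17 rose, 16 fell and 3 did not pass, against 74.4% called (39.2% higher, 35.3% lower). These 5 comparisons share the control libraries. The members' median log2 difference from control was 0.13, 0.35, 0.14, 0.20 and 0.11 at days 1, 3, 5, 7 and 14, and that of all genes 0.03, −0.03, 0.03, 0.05 and 0.06. The share of members called was 58.3%, 72.2%, 69.4%, 77.8% and 91.7% at the 5 days. The median absolute log2 difference of the members was 0.22, 0.40, 0.29, 0.43 and 0.46, below the 0.50, 0.46, 0.50, 0.57 and 0.53 of all genes at the same days. With library totals alone, 33 members were called higher and 0 lower at day 1, against 70.5% of all genes higher and 13.3% lower under that scaling. At day 3 they were 32 and 1 (Rab27a lower), against 54.9% and 18.2%, and at day 5 they were 32 and 0, against 72.2% and 11.8%. At day 7 they were 33 and 2, against 74.4% and 12.2%, and at day 14 they were 33 and 2, against 74.4% and 11.7%.

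Counted by libraries that do not overlap, the members gave a like picture. At day 1, 14 members had all 4 libraries above control and 5 all below, against 67% of all genes apart (34.3% above, 32.7% below). At day 3 these were 21 and 1, against 61% (30.3% above, 30.7% below), and at day 5 they were 15 and 7, against 66% (34% above, 32% below). At day 7 they were 19 and 9, against 69.6% (36.1% above, 33.5% below), and at day 14 they were 16 and 14, against 66.8% (34.5% above, 32.3% below). From day 1 to day 3, 16 members moved wholly up and 7 wholly down, against 67% (33.1% up, 33.9% down), and from day 3 to day 5, 9 and 16, against 70% (34.2% up, 35.8% down). From day 5 to day 7 these were 11 and 11, against 60.8% (29.7% up, 31.1% down), and from day 7 to day 14 they were 5 and 13, against 45.8% (23% up, 22.8% down).

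**Figure D1:**
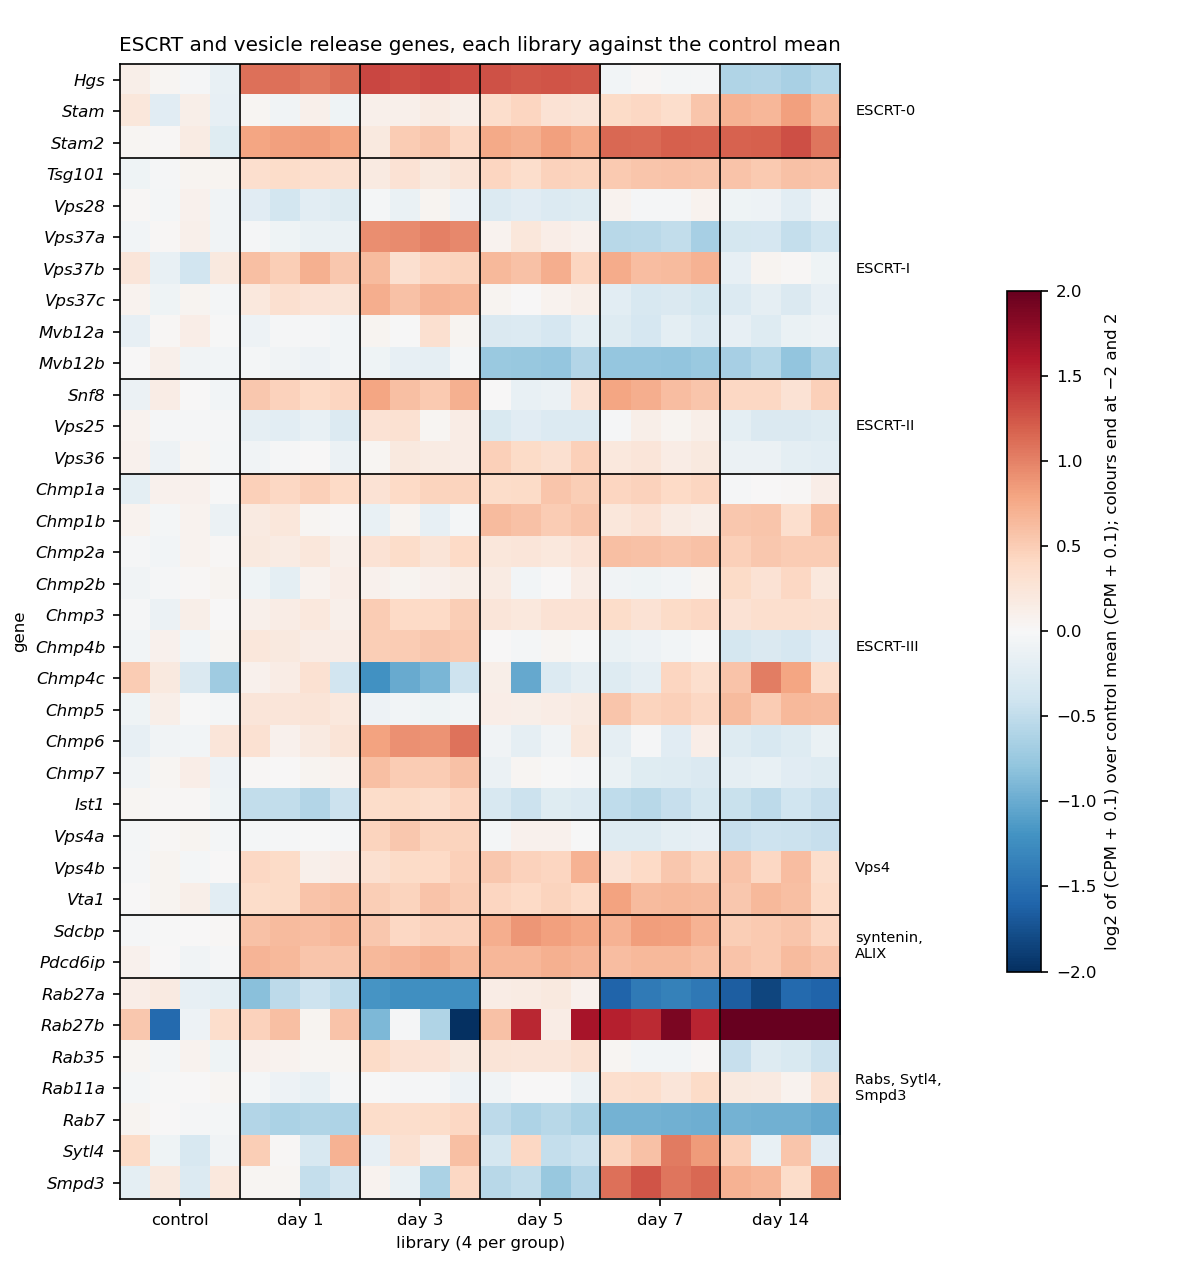
Heat map of the 36 genes (rows, grouped by role) in the 24 libraries (columns, 4 per group). Colour gives log2 of CPM + 0.1 over the control mean of each gene, red higher and blue lower, with colours ending at −2 and 2; the 4 day 3 columns are red in most ESCRT rows, and Rab27a and Rab27b show the strongest colours.

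Between neighbouring times, by TMM, more members rose than fell into day 3 and more fell than rose out of it. From day 1 to day 3, 17 rose, 8 fell and 11 did not pass, against 74.1% of all genes called (36.1% higher, 38% lower). From day 3 to day 5, 9 rose, 17 fell and 10 did not pass, against 77.3% (38.2% higher, 39.2% lower). From day 5 to day 7, 12 rose, 11 fell and 13 did not pass, against 68.2% (33.8% higher, 34.4% lower). From day 7 to day 14, 7 rose, 13 fell and 16 did not pass, against 51.6% (26% higher, 25.6% lower). The split depends on scaling, and all genes shift with it. With library totals 10 members were called higher and 14 lower from day 1 to day 3, against 24.8% of all genes higher and 51% lower, and 21 and 11 from day 3 to day 5, against 51.6% and 25.4%. From day 5 to day 7 they were 15 and 9, against 43.1% and 26.6%, and from day 7 to day 14 they were 5 and 20, against 21% and 30.5%.

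In all, 9 members had all 4 day 3 libraries above all 20 other libraries: Hgs, Vps37a, Vps37c, Chmp4b, Chmp6, Chmp7, Ist1, Vps4a and Rab7. That is 25% of the members, against 13% of all genes tested, and 8 members (22.2%, against 9.05%) with library totals alone, where Hgs is highest at day 5. Of the 9, 5 are ESCRT-III or Vps4 genes, groups that hold 11 and 3 of the 36 members, and this share was not tested. At the opposite end, 7 members had all 4 control libraries below the 20 others: Stam2, Tsg101, Chmp2a, Vps4b, Vta1, Sdcbp and Pdcd6ip. That is 19.4% of the members against 9.97% of all genes, and 75% against 35.8% with library totals. No member had its 4 control libraries above all others, while 13.7% of all genes did. The neutrophil marker sum was also highest in the 4 day 3 libraries, and the fibre marker sum was higher there than at any other day after denervation; their part in the day 3 pattern was not tested.

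**Figure D2:**
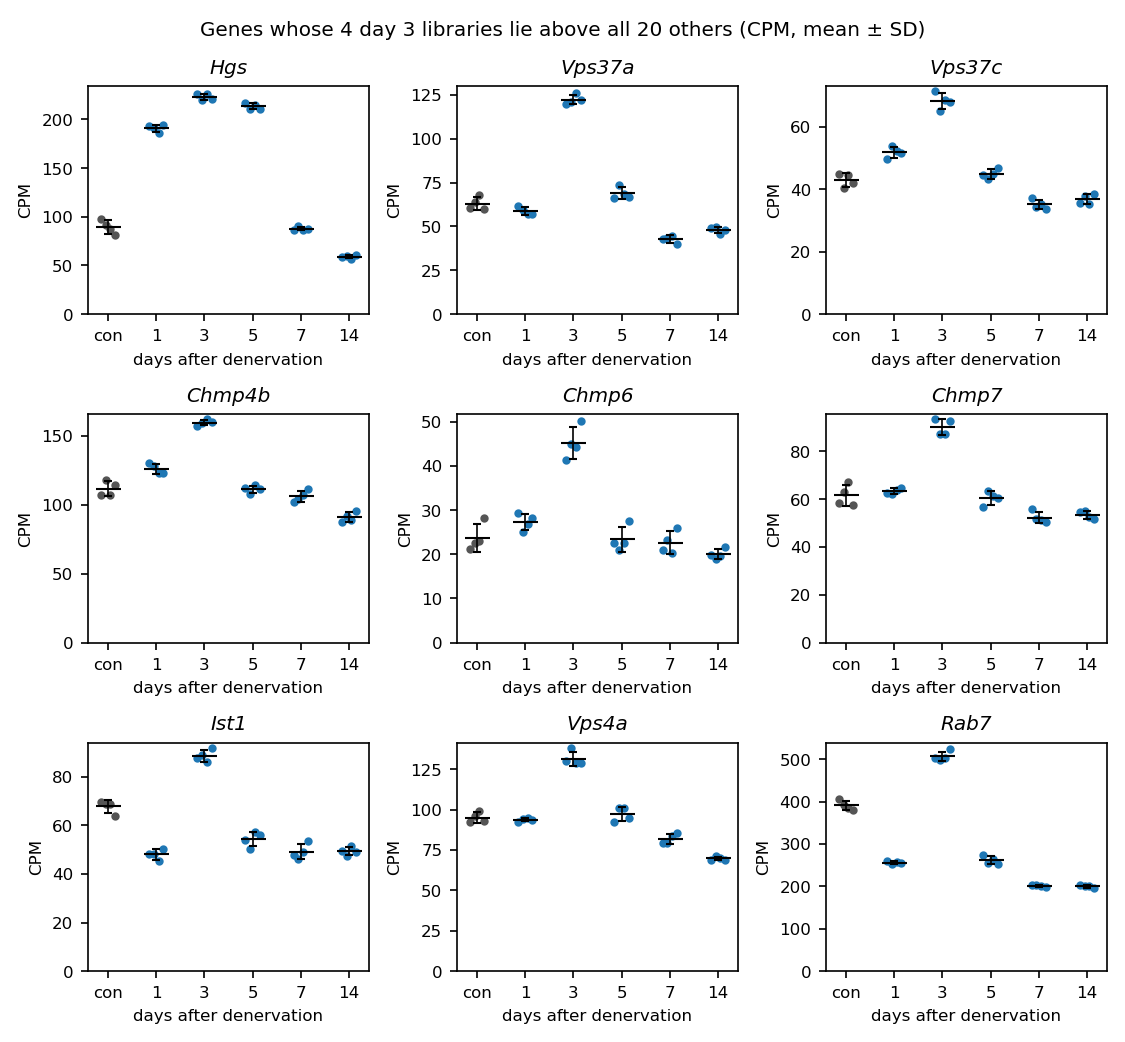
CPM (vertical axis, from 0) by days after denervation for the 9 genes whose 4 day 3 libraries lie above the 20 others; points are libraries, control in grey, bars the mean ± SD (n = 4). Hgs is nearly as high at days 1 and 5, and with library totals its day 5 libraries are the highest, whereas the other 8 stand apart at day 3.

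**Figure D3:**
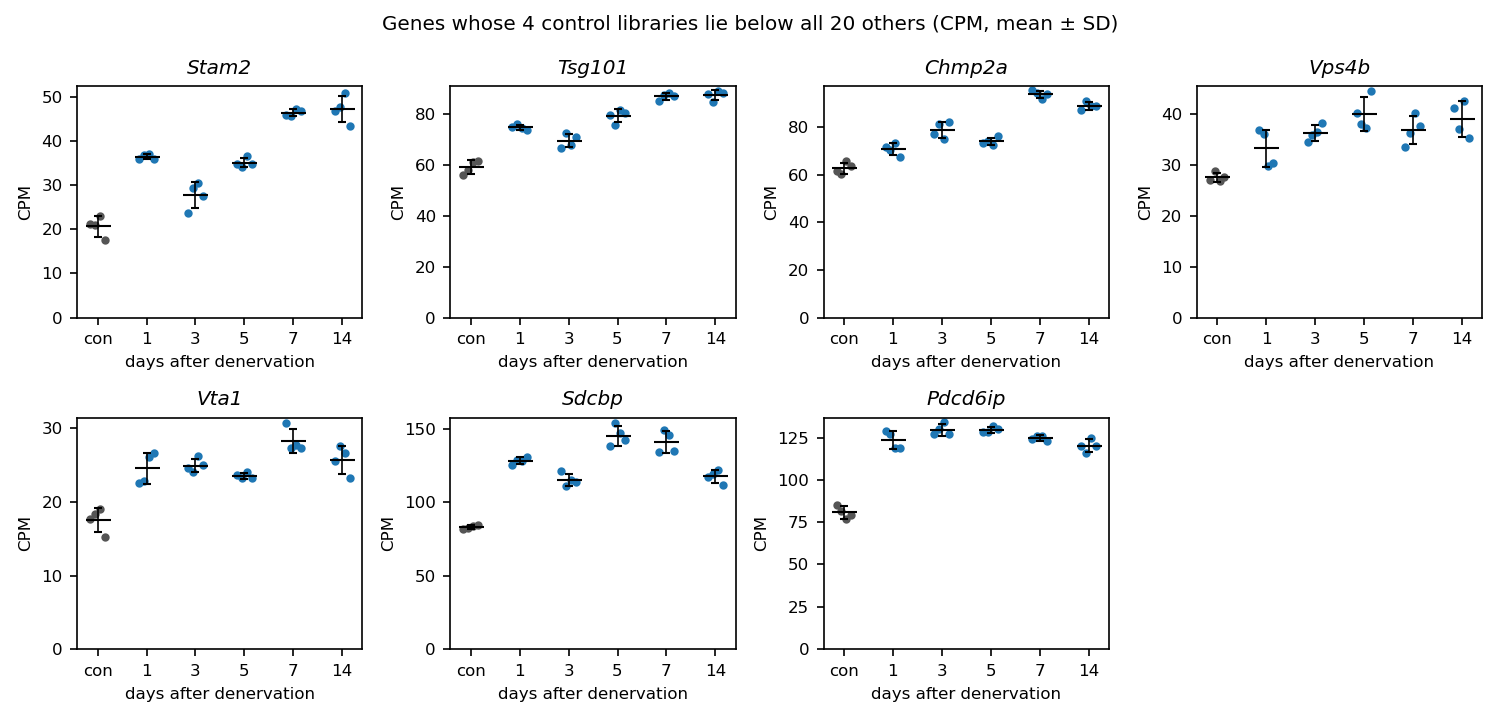
CPM (vertical axis, from 0) by days after denervation for the 7 genes whose 4 control libraries lie below the 20 others; points are libraries, control in grey, bars the mean ± SD (n = 4). Stam2, Tsg101 and Chmp2a are highest at days 7 and 14, Sdcbp peaks at days 5 and 7, and the Pdcd6ip libraries after denervation run from 116 to 134 CPM.

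The promoters of 4 members of these sets are shown, a pair from each set, to let the letters found in their start regions be read beside their levels. RefSeq gave a window from 250 bases before to 50 after the start for 25 of the 36 genes (build GRCm38.p6); Vps28, Vps37a, Vps37b, Snf8, Chmp1b, Chmp4c, Chmp6, Chmp7, Sdcbp, Rab27b and Smpd3 were not matched. Hgs (chr11:120467385-120467684, plus strand) and Rab7 (chr6:88045221-88045520, minus strand, the first of 2 windows) were highest at day 3 by TMM, Hgs at day 5 with library totals. Pdcd6ip (chr9:113708210-113708509, minus strand) and Tsg101 (chr7:46919920-46920219, minus strand) were lowest in control. Capitals mark matches, on either strand, to the CCAAT box (CCAAT), the NRF1 palindrome, the antioxidant response element (TGACNNNGC), the CLEAR box (TCACGTGA) and the E-box (CACGTG), which lies inside the CLEAR box.
Hgs: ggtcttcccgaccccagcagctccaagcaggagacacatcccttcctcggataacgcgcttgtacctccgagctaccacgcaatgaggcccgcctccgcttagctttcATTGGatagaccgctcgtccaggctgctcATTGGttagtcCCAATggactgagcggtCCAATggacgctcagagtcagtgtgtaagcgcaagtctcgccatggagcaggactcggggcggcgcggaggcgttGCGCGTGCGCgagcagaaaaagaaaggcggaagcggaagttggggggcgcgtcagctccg
Rab7: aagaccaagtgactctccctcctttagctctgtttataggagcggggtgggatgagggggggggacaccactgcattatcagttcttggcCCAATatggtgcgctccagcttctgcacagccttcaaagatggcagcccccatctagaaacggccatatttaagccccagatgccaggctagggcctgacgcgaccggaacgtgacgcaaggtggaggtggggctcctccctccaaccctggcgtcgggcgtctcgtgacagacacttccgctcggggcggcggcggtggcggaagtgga
Pdcd6ip: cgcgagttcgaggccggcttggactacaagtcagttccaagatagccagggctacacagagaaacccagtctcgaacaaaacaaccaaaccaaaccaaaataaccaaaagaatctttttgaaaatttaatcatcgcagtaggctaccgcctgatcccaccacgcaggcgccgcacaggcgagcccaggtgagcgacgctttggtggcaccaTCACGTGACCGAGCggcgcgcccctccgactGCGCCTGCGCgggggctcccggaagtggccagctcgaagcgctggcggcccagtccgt
Tsg101: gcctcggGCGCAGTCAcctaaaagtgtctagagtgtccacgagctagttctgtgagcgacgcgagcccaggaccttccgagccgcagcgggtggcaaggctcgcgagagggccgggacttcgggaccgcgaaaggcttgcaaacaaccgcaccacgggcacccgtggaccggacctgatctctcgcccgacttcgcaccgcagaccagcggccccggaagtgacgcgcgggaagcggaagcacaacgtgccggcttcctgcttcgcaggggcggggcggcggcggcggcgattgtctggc
Hgs held 4 CCAAT boxes and 1 NRF1 palindrome, and Rab7 held 1 CCAAT box. Pdcd6ip held a CLEAR box that overlaps an antioxidant response element, and 1 NRF1 palindrome. Tsg101 held 1 antioxidant response element. Both also held 1 Ets core, left in lower case above. The motifs shared within a pair were thus the CCAAT box in Hgs and Rab7 and the antioxidant response element and Ets core in Pdcd6ip and Tsg101, while the NRF1 palindrome was in 1 gene of each pair. The pairs do not stand for their sets. The CCAAT box was in 3 of the 6 genes searched that were highest at day 3. Among the genes lowest in control, Vps4b also held the antioxidant response element, but Stam2, Chmp2a and Vta1 did not. No Ets core was found in Stam2, Chmp2a, Vps4b or Vta1. In all, 9 motifs were searched in the 25 windows and in all 32851 windows of the table; the other 4 were the heat shock element, the Ets core (CCGGAAGT), the cAMP response element (TGACGTCA) and the E-box of myogenic factors (CAGCTG). The NRF1 palindrome was in 28% of the members' windows and 4.6% of all windows, in Hgs, Pdcd6ip, Chmp2a, Chmp2b, Chmp3, Chmp5 and Rab35. The antioxidant response element was in 24% and 12.4%, the CLEAR box in 4% and 0.974%, the E-box in 4% and 7.15%, and the Ets core in 12% and 3.89%. The CCAAT box was in 20% and 37.4%, the myogenic E-box in 12% and 16.3%, the cAMP response element in 4% and 1.79%, and the heat shock element in 0% and 0.603%. The members' windows were richer in G and C, with a median of 61% against 52.7%, and the part of base composition in these shares was not tested. A match describes letters in the window only.

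Within ESCRT-0, by TMM, Hgs and Stam2 rose early and Stam later. Hgs, the ubiquitin-binding subunit that recruits the complex to the endosome (ENSMUSG00000025793, GRCm38 chromosome 11, 120467635 to 120483979, plus strand), stood at 97.5, 91.7, 87.6 and 80.9 CPM in the control libraries, 193, 191, 186 and 194 at day 1, 226, 220, 226 and 221 at day 3, and 217, 211, 215 and 211 at day 5. It was back at 86.5, 90.6, 86.9 and 87.6 CPM at day 7 and at 59.1, 59.4, 56.8 and 60.3 at day 14. The first 3 times lie wholly above control, day 7 overlaps it, and day 14 lies wholly below. Hgs rose by log2 1.10 ± 0.034 (SE; adjusted p = 6.5e-31, edgeR), 1.32 ± 0.034 (adjusted p = 6.1e-34) and 1.26 ± 0.034 (adjusted p = 2.2e-33) at days 1, 3 and 5. At day 7 the difference was −0.02 ± 0.036 and did not pass. Hgs was 1.52-fold lower at day 14 (log2 −0.60 ± 0.038, adjusted p = 4.5e-19), and 0.11 higher (log2) with library totals alone. From day 3 to day 5 the small drop of −0.06 passed, but Hgs was 0.21 higher at day 5 with library totals and did not pass with DESeq2 size factors (−0.04) or upper quartile scaling (0.00). It also did not pass without day 3 replicate 1 or 3 or day 5 replicate 2 or 4 (−0.06 each), or without day 5 replicate 3 (−0.07). From day 5 to day 7 it fell by 1.28 ± 0.032 on the log2 scale, the largest step of any ESCRT member between neighbouring times, and with library totals by 1.16.

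Stam2, one of the partners of Hgs (ENSMUSG00000055371, chromosome 2, 52691664 to 52742281, minus strand), stood at 21.2, 21, 23.1 and 17.5 CPM in control and 36, 36.8, 37.1 and 35.9 at day 1. It stood at 23.8, 29.4, 30.6 and 27.6 CPM at day 3, 34.9, 34.1, 36.6 and 34.7 at day 5, 45.9, 45.7, 47.3 and 46.8 at day 7, and 46.8, 47.7, 50.8 and 43.5 at day 14. All denervated libraries lie above control, and the day 3 libraries are the lowest of them, below every day 1 library. Stam2 rose by log2 0.81 ± 0.069, 0.43 ± 0.072, 0.76 ± 0.070, 1.16 ± 0.068 and 1.19 ± 0.068 (adjusted p at most 9.9e-07), and fell by 0.39 ± 0.061 on the log2 scale from day 1 to day 3. Stam, the other partner, was at 24.8 ± 3.7 CPM in control (SD, n = 4), 24.8 ± 1.5 at day 1 and 27 ± 0.6 at day 3, which did not pass (day 3 passed without control replicate 1, at log2 0.20). It rose to 31.3 ± 1.7, 33.5 ± 2.2 and 40.6 ± 2.1 CPM at days 5, 7 and 14 (log2 0.33 ± 0.072, 0.43 ± 0.071 and 0.71 ± 0.070), with its 4 day 14 libraries above all others. With library totals Stam was already higher at days 1 and 3 (0.58 and 0.50), so its late start depends on scaling. By TMM, Hgs was thus at its lowest at day 14 while both partners were at or near their highest. With library totals Hgs was not lowest there, lying 0.11 (log2) above control.

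ESCRT-I members went different ways. Tsg101, which binds cargo ubiquitin and viral or cellular late-domain motifs, ran from 55.8 to 61.3 CPM in control and from 66.6 to 88.9 in all denervated libraries without overlap, a rise of log2 0.34, 0.23, 0.42, 0.56 and 0.56 over the 5 times (adjusted p at most 1.3e-06). The 3 alternative Vps37 subunits differed. Vps37a (ENSMUSG00000031600, chromosome 8, 40511783 to 40551134, plus strand) stood at 60.5, 63.8, 67.7 and 59.7 CPM in control, 61.9, 59.4, 57.1 and 57.2 at day 1, 120, 121, 126 and 122 at day 3, and 66.1, 73.6, 68.7 and 66.9 at day 5. It then stood at 42.9, 43.5, 44.7 and 39.8 CPM at day 7 and 49.1, 49.6, 45.4 and 47.9 at day 14. Only day 3 stands far above the rest, while day 1 and day 5 overlap control. Vps37a rose by log2 0.96 ± 0.043 at day 3 (adjusted p = 2.3e-24). The differences of −0.56 ± 0.047 at day 7 and −0.39 ± 0.046 at day 14 passed as lower but were 0.21 and 0.32 with library totals. Day 1 did not pass, but passed as lower without control replicate 1 (−0.11), control replicate 4 (−0.12) or day 1 replicate 1 (−0.12). The rise of 0.13 ± 0.045 at day 5 did not pass without day 5 replicate 2 (0.09).

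Vps37c stood at 45, 40.4, 44.5 and 42 CPM in control, 49.7, 53.8, 52.2 and 51.6 at day 1 and 71.3, 64.9, 68.7 and 67.9 at day 3. It stood at 44.5, 43.1, 45 and 46.7 CPM at day 5, 37.2, 34.4, 35.3 and 33.6 at day 7, and 35.5, 37.8, 35.2 and 38.4 at day 14. It rose at days 1 and 3 (log2 0.27 ± 0.048 and 0.66 ± 0.048), and its lower values at days 7 and 14 (−0.29 ± 0.050 and −0.23 ± 0.050) were 0.48 and 0.49 with library totals. Vps37b, the least abundant of the 3 at 4.15 ± 0.85 TPM in control, stood at 10.4, 7.92, 6.67 and 10.1 CPM there. It stood at 13.4, 12.4, 14.5 and 12.8 CPM at day 1, 13.7, 11, 11.9 and 12 at day 3, 13.8, 13.2, 14.6 and 11.9 at day 5, 14.7, 13.5, 13.6 and 14.3 at day 7, and 7.79, 9.1, 8.88 and 8.22 at day 14. Its libraries of days 1 to 7 all lie above control, by log2 0.47 ± 0.11 to 0.68 ± 0.11, and those of day 14 overlap control (−0.04 ± 0.11).

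Mvb12b, a subunit that ties ESCRT-I to the endosome membrane, stood at 56.2, 59.9, 52.9 and 53.9 CPM in control, 54.2, 53, 51.9 and 53.5 at day 1, and 52.6, 49.7, 49.3 and 54 at day 3. It stood at 33.1, 33, 32.4 and 37.1 CPM at day 5, 32.7, 32.7, 32.2 and 33.2 at day 7, and 35.3, 37.3, 32.2 and 36.8 at day 14. The level thus dropped between days 3 and 5 and the later groups do not overlap the earlier ones. Against control it was lower by log2 −0.72 ± 0.052, −0.77 ± 0.052 and −0.65 ± 0.051 at days 5, 7 and 14 (adjusted p at most 1.1e-15), values that became −0.07, 0.00 and 0.06 with library totals. The step from day 3 to day 5 held under that scaling (−0.60 ± 0.050, and −0.33 with library totals). Its difference of −0.12 at day 3 passed but was 0.26 with library totals and did not pass without control replicate 1 (−0.11), control replicate 2 (−0.08), day 3 replicate 2 (−0.10) or day 3 replicate 3 (−0.09). Mvb12a ran from 16.7 to 26.2 CPM over all libraries and was lower at days 5, 7 and 14 (−0.27, −0.27 and −0.16), which turned to 0.37, 0.50 and 0.56 with library totals. The day 14 difference of Mvb12a had an adjusted p = 0.05 (edgeR) and did not pass without control replicate 2 (−0.15), 3 (−0.11) or 4 (−0.16), or without day 14 replicate 1 (−0.16), 2 (−0.13) or 3 (−0.17). Nor did it pass with upper quartile scaling (−0.07). Vps28, a core subunit, ran from 38.8 to 52.9 CPM and was lower at days 1, 5 and 14 (−0.26, −0.26 and −0.12), which turned to 0.32, 0.39 and 0.60. The day 14 difference of Vps28 did not pass without control replicate 1 (−0.11), control replicate 3 (−0.09) or day 14 replicate 3 (−0.08), or with upper quartile scaling (−0.03).

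In ESCRT-II, the bridge to ESCRT-III, all 3 subunits rose at day 3, and they parted afterwards. Snf8 stood at 12.8, 15.5, 14.1 and 13.4 CPM in control, 20.3, 19.3, 18.4 and 18.9 at day 1, 24.1, 21.2, 20 and 22.8 at day 3, and 14, 12.6, 12.9 and 17 at day 5. It stood at 24.2, 23.2, 21.5 and 20.5 CPM at day 7 and 18.6, 18.6, 17.1 and 19.4 at day 14. Day 5 alone overlaps control (log2 0.02 ± 0.092), and the other times were higher by 0.47 ± 0.089, 0.66 ± 0.089, 0.68 ± 0.087 and 0.40 ± 0.089. Vps36, the membrane-binding subunit, stood at 50.8, 44.6, 48.8 and 46.6 CPM in control, 45.2, 47.1, 48.1 and 44.2 at day 1, 48.9, 54.6, 53.2 and 53.1 at day 3 and 66.3, 62.2, 59.8 and 66.3 at day 5. It stood at 55.2, 56.4, 52.9 and 54.4 CPM at day 7 and 43.8, 44, 41.6 and 41.1 at day 14. Vps36 peaked where Snf8 dipped. Its rise of log2 0.14 at day 3 did not pass without control replicate 2 (0.11) or with upper quartile scaling (0.10). At day 5 it rose by log2 0.42 ± 0.048. At day 14 it was lower by −0.16 ± 0.049, which was 0.56 with library totals and did not pass with upper quartile scaling (−0.08). Vps25 was at 53.3 ± 1.9 CPM in control, 46.3 ± 1.7 at day 1, 61.3 ± 5.2 at day 3, 44.3 ± 0.89 at day 5, 55.9 ± 2.8 at day 7 and 44.5 ± 1.3 at day 14 (SD, n = 4). It rose at day 3 (log2 0.20 ± 0.050, groups overlapping) and was lower at days 1, 5 and 14 (−0.20, −0.27 and −0.26), which turned to 0.38, 0.38 and 0.46 with library totals. Vps25 overlaps Ramp2 and Vps28 overlaps Tonsl on the same strand in the annotation, so their counts are uncertain.

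In ESCRT-III, 7 of the 11 members rose at day 3, 1 fell and 3 did not pass, beside 23 of all 36 members that rose then. Chmp6, which links ESCRT-II to the filament, stood at 21.2, 22.5, 22.9 and 28.2 CPM in control, 29.3, 25.1, 26.9 and 28.3 at day 1, 41.4, 44.9, 44.2 and 50.2 at day 3 and 22.5, 21, 22.5 and 27.6 at day 5. It stood at 20.9, 23.2, 20.2 and 26 CPM at day 7 and 19.8, 19, 19.7 and 21.7 at day 14. Day 3 stands clear of every other group, and all other groups overlap control. Chmp6 rose by log2 0.93 ± 0.083 at day 3 (adjusted p = 6.8e-14) and fell by 0.95 ± 0.077 on the log2 scale from day 3 to day 5. The rise of 0.21 ± 0.085 at day 1 did not pass without control replicate 1 (0.17), 2 (0.19) or 3 (0.20) or without day 1 replicate 1 (0.18). At day 14 it was lower by −0.24 ± 0.088, which was 0.47 with library totals. This difference did not pass without control replicate 4 (−0.15) or with upper quartile scaling (−0.16).

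Chmp4b, the main filament subunit and one of the most abundant members of the complex (82.5 ± 4.5 TPM in control), stood at 107, 118, 107 and 114 CPM in control and 130, 128, 123 and 123 at day 1. It stood at 157, 159, 162 and 160 CPM at day 3, 112, 108, 114 and 111 at day 5, 102, 104, 107 and 111 at day 7, and 87.6, 91.5, 88.6 and 95.7 at day 14. It rose by log2 0.18 ± 0.034 and 0.52 ± 0.034 at days 1 and 3, overlapped control at days 5 and 7, and was lower by −0.30 ± 0.035 at day 14, which was 0.42 with library totals. Day 7 did not pass, but Chmp4b passed there as lower with DESeq2 size factors (−0.08) and without control replicate 1, control replicate 3 or day 7 replicate 4 (−0.09 each). Its paralog Chmp4c was close to the counting floor, at 0.258 ± 0.1 TPM in control, with 8 to 58 counts in a library. Chmp4c stood at 1.88, 1.5, 1.04 and 0.756 CPM in control, 1.38, 1.44, 1.63 and 0.97 at day 1, 0.501, 0.594, 0.637 and 0.943 at day 3 and 1.42, 0.588, 1.05 and 1.13 at day 5. It stood at 1.06, 1.13, 1.78 and 1.66 CPM at day 7 and 1.96, 2.73, 2.32 and 1.68 at day 14. All of these groups overlap control. The lower value at day 3 (−0.95 ± 0.36, adjusted p = 0.016) did not pass without control replicate 1 (−0.71), and the higher one at day 14 (0.75 ± 0.30, adjusted p = 0.02) did not pass without control replicate 3 (0.66), control replicate 4 (0.57) or day 14 replicate 2 (0.62).

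Chmp5, which binds the Vps4 cofactor, stood at 35.2, 40.8, 37.2 and 36.6 CPM in control, 44.2, 44.4, 44.7 and 43.4 at day 1, 34.8, 36.1, 35.1 and 36 at day 3 and 41.1, 40.8, 41.3 and 42.5 at day 5. It stood at 54.8, 51.3, 52.1 and 50.1 CPM at day 7 and 58.4, 53.5, 58.6 and 58.1 at day 14. It is 1 of the 3 ESCRT-III genes that did not pass at day 3 (log2 −0.08 ± 0.051), and it rose most at days 7 and 14 (0.48 ± 0.048 and 0.61 ± 0.047). Chmp1b stood at 26.3, 24.4, 26.1 and 23.1 CPM in control, 28.3, 29.3, 25.8 and 25.3 at day 1, 22.5, 25.9, 22.3 and 24.3 at day 3 and 38.9, 37.7, 35.5 and 36.8 at day 5. It stood at 29.2, 30.7, 27.9 and 27.2 CPM at day 7 and 36.4, 36.7, 31.7 and 37.9 at day 14. Days 5, 7 and 14 lie above control (log2 0.58 ± 0.067, 0.20 ± 0.068 and 0.51 ± 0.067) and days 1 and 3 overlap it; day 1 passed without day 1 replicate 4 (0.16). Chmp2a, a subunit that caps the filament, stood at 61.6, 60.2, 65.7 and 63.6 CPM in control, and no denervated library was as low as these, the lowest being 67.6 at day 1. Its rise was smallest at day 1 (log2 0.17 ± 0.039) and largest at day 7 (0.58 ± 0.038), where the 4 libraries (95.6, 94.4, 91.9 and 93.8 CPM) lie above all others. Per length it was the most abundant ESCRT-III transcript at days 5, 7 and 14, at 159 ± 4.7, 215 ± 2.2 and 193 ± 3.7 TPM.

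The remaining ESCRT-III genes divide by the same times. By TMM, Chmp7, which takes ESCRT-III to the nuclear envelope, rose only at day 3 among the 5 days tested (57.6 to 67.2 CPM in control, 87.1 to 93.3 at day 3, log2 0.55 ± 0.045). Chmp7 was lower at days 7 and 14 (−0.24 and −0.20), which turned to 0.53 and 0.51 with library totals. With library totals it was also higher at days 1 and 5 (0.62 each), and day 1 passed as higher with upper quartile scaling (0.13). Ist1, a regulator of Vps4 (ENSMUSG00000031729, chromosome 8, 109671325 to 109693260, minus strand), stood at 69.7, 68.8, 68.8 and 63.9 CPM in control and 87.8, 88.8, 86.1 and 91.8 at day 3, and between 45.2 and 57.1 at the other times. The day 3 libraries lie above control and those of the other days below it. Ist1 rose by log2 0.39 ± 0.045 at day 3, and its lower values of −0.50, −0.32, −0.47 and −0.46 at days 1, 5, 7 and 14 turned to 0.08, 0.33, 0.30 and 0.26 with library totals, so a day 3 peak held under both scalings while its place against control did not. Chmp1a rose at days 1 to 7 by 0.40 to 0.45 (log2) and stood at 76.4 ± 3.9 CPM at day 14 against 74.6 ± 6.6 in control (SD, n = 4), which did not pass. Chmp3 rose at every day, by TMM most at day 3 (log2 0.45 ± 0.041). Its day 5 level was 0.08 (log2) above day 3 with library totals. By TMM, Chmp2b passed only at day 14 of the 5 days (0.33 ± 0.059), when its libraries, 47.6 to 54.8 CPM, lay above the rest. With library totals Chmp2b was also higher at days 1, 3, 5 and 7 (0.57, 0.46, 0.71 and 0.72).

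The ATPase subunits Vps4a and Vps4b moved apart. Vps4a (ENSMUSG00000031913, chromosome 8, 107031222 to 107045755, plus strand) stood at 92.3, 96.2, 99 and 92.6 CPM in control, 92.4, 94, 95 and 93.7 at day 1, 130, 138, 129 and 129 at day 3 and 92.5, 101, 101 and 94.7 at day 5. It stood at 79.1, 79.5, 83.3 and 85.2 CPM at day 7 and 68.8, 71, 70.2 and 68.9 at day 14. Vps4a rose at day 3 (log2 0.47 ± 0.035, adjusted p = 3.3e-16), overlapped control at days 1 and 5, and lay below it at days 7 and 14 (−0.22 ± 0.036 and −0.45 ± 0.037, which turned to 0.55 and 0.27 with library totals). Vps4b (ENSMUSG00000009907, chromosome 1, 106764071 to 106796728, minus strand) stood at 27.1, 28.8, 26.8 and 27.7 CPM in control, 36.8, 36, 29.7 and 30.4 at day 1, 34.5, 35.9, 36.5 and 38.3 at day 3, and 40.1, 38.1, 37.2 and 44.6 at day 5. It stood at 33.6, 36.3, 40.2 and 37.6 CPM at day 7 and 41.2, 37, 42.6 and 35.2 at day 14. Every denervated library was above control, by log2 0.27 ± 0.074 to 0.54 ± 0.073. With TMM and all libraries no step between neighbouring times passed, but some did otherwise. The step of Vps4b from day 3 to day 5 passed as higher with DESeq2 size factors (0.16), upper quartile scaling (0.21) and library totals (0.41), and without day 3 replicate 4 (0.16), day 5 replicate 2 (0.16) or day 5 replicate 3 (0.17). That from day 1 to day 3 passed without day 1 replicate 1 (0.18) or 2 (0.16), and that from day 5 to day 7 without day 7 replicate 3 (−0.16). Vta1, the cofactor that activates Vps4, stood at 17.7, 18.3, 19 and 15.2 CPM in control and between 22.6 and 30.7 in the denervated libraries, again without overlap. It rose by log2 0.42 ± 0.076 to 0.69 ± 0.074, most at day 7.

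Syntenin and ALIX rose at all 5 times. Sdcbp, which encodes syntenin, the adaptor between syndecans and ALIX (ENSMUSG00000028249, chromosome 4, 6365650 to 6408423, plus strand), stood at 81.6, 82.3, 83.9 and 84.5 CPM in control, 125, 129, 128 and 131 at day 1, 121, 111, 115 and 114 at day 3 and 138, 154, 147 and 142 at day 5. It stood at 134, 149, 146 and 135 CPM at day 7 and 117, 119, 122 and 112 at day 14. The rises were log2 0.62 ± 0.039, 0.47 ± 0.040, 0.81 ± 0.039, 0.76 ± 0.039 and 0.50 ± 0.040 (adjusted p at most 2.1e-14). Pdcd6ip, which encodes ALIX, the link from syntenin to ESCRT-III (ENSMUSG00000032504, chromosome 9, 113651744 to 113708259, minus strand), stood at 85.4, 81.5, 77 and 79 CPM in control, 129, 127, 119 and 119 at day 1, 127, 130, 134 and 127 at day 3 and 128, 128, 132 and 130 at day 5. It stood at 124, 126, 126 and 123 CPM at day 7 and 120, 116, 125 and 120 at day 14. Its lowest denervated library, at 116 CPM, lay far above its highest control library. The rises were 0.62, 0.68, 0.68, 0.63 and 0.57, each with an SE of 0.035 (adjusted p at most 1.8e-19). With TMM and all libraries no step of Pdcd6ip between neighbouring times passed. With library totals it stepped by −0.14 from day 1 to day 3, 0.27 from day 3 to day 5 and −0.10 from day 7 to day 14, all passing. From day 3 to day 5 it also passed with upper quartile scaling (0.07), and from day 5 to day 7 with DESeq2 size factors (−0.07). From day 1 to day 3 it passed as higher without day 1 replicate 1 (0.09), or without day 1 replicate 2, day 3 replicate 1 or day 3 replicate 4 (0.08 each). Both genes kept their direction against control with library totals. Sdcbp overlaps Nsmaf on the opposite strand, and Nsmaf stood at 79.8 CPM in control and 66.7, 122, 80.5, 45.1 and 47 at days 1, 3, 5, 7 and 14. Sharing of reads between Sdcbp and Nsmaf was not tested. The pair summed to a mean of 164 CPM in control and of 275 and 266 CPM at days 5 and 7. The deposited TPM are not scaled by TMM. In them the pair summed to between 66.1 and 76.5 in control and to between 198 and 224 at days 5 and 7. The size of the rise thus depends on the scaling.

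Among the genes of docking and release, the closely related Rab27a and Rab27b, which hold multivesicular bodies at the plasma membrane, went opposite ways late. Rab27a (ENSMUSG00000032202, chromosome 9, 73044854 to 73097629, plus strand) stood at 14.3, 14.7, 11.6 and 11.3 CPM in control, 7.25, 8.98, 9.69 and 9.05 at day 1, 5.7, 5.51, 5.47 and 5.47 at day 3 and 14.4, 14.6, 14.8 and 13.8 at day 5. It stood at 4.23, 4.81, 5.05 and 4.76 CPM at day 7 and 4.08, 3.58, 4.34 and 4.22 at day 14. Day 5 alone overlaps control, and the other times lie wholly below it. Rab27a fell by 1.22 ± 0.11 on the log2 scale at day 3 (adjusted p = 2.5e-13), 1.46 ± 0.11 at day 7 (adjusted p = 4.6e-16) and 1.67 ± 0.12 at day 14 (adjusted p = 1e-17), and with library totals by 0.85, 0.69 and 0.96. The lower value at day 1, −0.57 ± 0.10, was 0.01 with library totals. At day 5 the difference of 0.16 ± 0.099 did not pass, and with library totals it was 0.80 (adjusted p = 5e-10). The lymphocyte marker sum was 125 to 130 CPM at day 1 and 145 to 158 at day 5, with 8 of 8 markers higher at both, against at most 5.46 at the other times, and its part in the day 1 and day 5 levels of Rab27a was not tested.

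Rab27b was scarce, with 0 to 64 counts in a library and 0.0995 ± 0.057 TPM in control against 5.18 ± 0.7 for Rab27a. It stood at 0.685, 0.0834, 0.402 and 0.588 CPM in control, 0.646, 0.72, 0.459 and 0.7 at day 1, 0.188, 0.432, 0.255 and 0 at day 3 and 0.708, 1.44, 0.496 and 1.59 at day 5. It stood at 1.49, 1.41, 1.89 and 1.45 CPM at day 7 and 2.49, 3.02, 2.61 and 2.6 at day 14. Days 7 and 14 lie above every control library, and day 14 lies above all others. Rab27b rose by log2 1.82 ± 0.45 at day 7 (adjusted p = 0.00015) and 2.60 ± 0.44 at day 14 (adjusted p = 1.2e-07), and by 1.48 and 2.26 without control replicate 2, which held 1 count. The rise of 1.27 ± 0.47 at day 5 (adjusted p = 0.0094) did not pass without that library (0.93) or without day 5 replicate 4 (1.01). Days 1 and 3 did not pass, but the day 3 difference of Rab27b passed as lower without day 3 replicate 2 (−1.53, against −0.93 with all libraries), and day 1 passed as higher with library totals (1.09, against 0.52). From day 1 to day 3 it fell by 1.45 ± 0.54 on the log2 scale and from day 3 to day 5 it rose by 2.20 ± 0.52; without day 3 replicate 2 these were −2.05 and 2.80. The step from day 7 to day 14 (0.78 ± 0.29, adjusted p = 0.024) did not pass without day 7 replicate 1 (0.76), 2 (0.73) or 4 (0.75) or without day 14 replicate 2 (0.72).

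**Figure D4:**
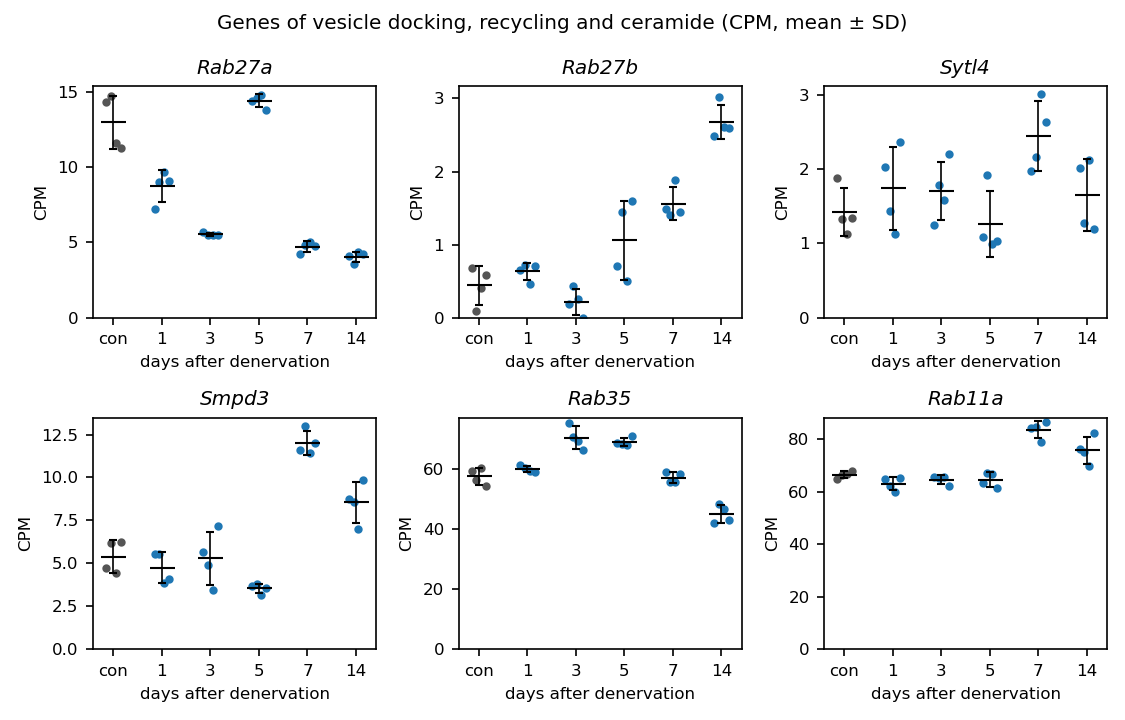
CPM (vertical axis, from 0, a different range in each panel) by days after denervation for Rab27a, Rab27b, Sytl4, Smpd3, Rab35 and Rab11a; points are libraries, control in grey, bars the mean ± SD (n = 4). Rab27a falls at days 3, 7 and 14 but not at day 5, Rab27b is highest at day 14, and Smpd3 is highest at day 7.

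Rab7, the late endosome GTPase that directs fusion with lysosomes, was by far the most abundant member in control at 234 ± 9.4 TPM (ENSMUSG00000079477, chromosome 6, 87999106 to 88045270, minus strand). It stood at 407, 391, 385 and 380 CPM in control, 260, 252, 258 and 254 at day 1, 502, 499, 502 and 523 at day 3 and 273, 256, 265 and 253 at day 5. It stood at 203, 203, 200 and 199 CPM at day 7 and 203, 201, 201 and 195 at day 14. Day 3 lies above control and every other time below it, with no overlap. Rab7 rose by log2 0.37 ± 0.024 at day 3 (adjusted p = 2.5e-18) and was lower by −0.61, −0.58, −0.96 and −0.97 (SE 0.025 each) at days 1, 5, 7 and 14. With library totals the day 3 rise was 0.75, and the other differences shrank to −0.03, 0.07, −0.19 and −0.25, so that day 1 no longer passed and day 5 turned. The steps into and out of day 3, 0.98 ± 0.024 and −0.95 ± 0.024, were 0.78 and −0.68 with library totals. The annotation lists a processed copy, Rab7-ps1, so some of its reads may be shared.

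Smpd3, the neutral sphingomyelinase that makes ceramide from sphingomyelin (ENSMUSG00000031906, chromosome 8, 106252548 to 106337988, minus strand), was expressed at a low level of 1.25 ± 0.23 TPM in control. It stood at 4.71, 6.17, 4.42 and 6.22 CPM in control, 5.54, 5.54, 3.83 and 4.1 at day 1, 5.64, 4.91, 3.44 and 7.17 at day 3 and 3.65, 3.79, 3.14 and 3.55 at day 5. It stood at 11.6, 13, 11.4 and 12 CPM at day 7 and 8.75, 8.58, 7 and 9.84 at day 14. The day 7 libraries lie above all others, those of day 14 above control, and those of day 5 below control. Smpd3 rose by log2 1.16 ± 0.15 at day 7 (adjusted p = 2.2e-09) and 0.66 ± 0.16 at day 14 (adjusted p = 0.00016), and its lower value of −0.60 ± 0.17 at day 5 was 0.04 with library totals. Prmt7 overlaps Smpd3 on the opposite strand. Sytl4, an effector of Rab27 on granules, stood at 1.42 ± 0.32 CPM in control (SD, n = 4) and by TMM passed only at day 7 of the 5 days, at 2.45 ± 0.47 CPM (log2 0.78 ± 0.28, adjusted p = 0.011). With library totals Sytl4 was also higher at days 1, 3 and 14 (0.88, 0.64 and 0.93). Sytl4 had few counts, 14 to 59 in a library. Its step from day 3 to day 5 passed as lower without day 5 replicate 2 (−0.72). That from day 7 to day 14 did so without day 7 replicate 1 (−0.65) or day 14 replicate 1 (−0.67) or 3 (−0.71). Rab35, of the recycling endosome, stood at 57.7 ± 2.7 CPM in control, rose at days 3 and 5 (log2 0.29 ± 0.046 and 0.26 ± 0.045) and was lowest at day 14 at 45.1 ± 3 CPM (−0.35 ± 0.047), which was 0.36 with library totals. Rab11a, which recycles membrane to the surface, did not pass at days 1, 3 and 5 (62.1 to 68.1 CPM at control and day 3, and 59.9 to 67.2 at days 1 and 5) and rose at days 7 and 14 (0.33 ± 0.044 and 0.19 ± 0.044). With library totals Rab11a was also higher at days 1, 3 and 5 (0.50, 0.34 and 0.60).

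A ratio of paralogs within a library does not depend on how libraries are scaled. In all, 6 ratios of TPM, with 0.01 added, were compared with control at 5 days, 30 tests in all, chosen after the values had been seen. With 4 libraries against 4 the smallest two-sided exact permutation p is 0.0286, which is 0.0476 adjusted over the 30 tests in TPM; on count ratios with 0.5 added the smallest adjusted p was 0.0504. So 18 of the 30 differences passed in TPM and 0 in counts. Rab27b was 1.74% of Rab27a in control as a geometric mean, 26.1% at day 7 and 45.9% at day 14. The log2 ratio stood at −5.42, −7.88, −4.98 and −5.10 in control, −1.72, −1.93, −1.92 and −2.18 at day 7, and −1.43, −0.70, −1.18 and −1.19 at day 14. The lowest control value is the library with 1 Rab27b count, at 0.015 TPM, so it rests on that count and on the added 0.01. In day 3 replicate 4, with 0 TPM of Rab27b, the added 0.01 alone stands for Rab27b (log2 ratio −8.21). Vps4b was 13.7% of Vps4a in control (log2 −2.86, −2.83, −2.97 and −2.83), 13% at day 3, where the groups overlap, and 26.2% at day 14 (−1.83, −2.03, −1.81 and −2.05), with 16.6%, 19.3% and 21.2% at days 1, 5 and 7. Stam2 was 49.4% of Stam in control, 81.1% at day 1, 49.7% at day 3, 58.1% at day 5, 80.8% at day 7 and 67.4% at day 14. TPM and counts differed here in size. The log2 ratio lay above control by 0.01 at day 3 and 0.23 at day 5 in TPM, but by 0.30 and 0.42 in counts.

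**Figure D5:**
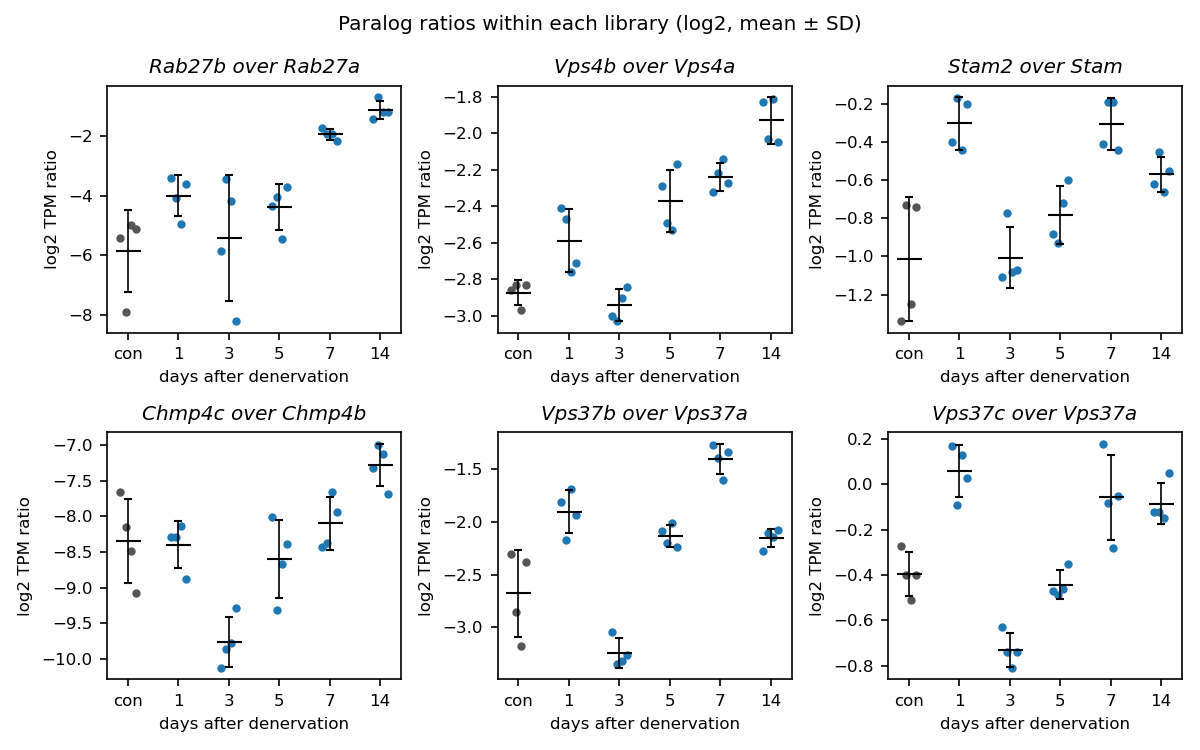
Log2 ratio of TPM + 0.01 between paralogs within each library (vertical axis, log2, a different range in each panel) by days after denervation; points are libraries, control in grey, bars the mean ± SD (n = 4). Rab27b over Rab27a and Vps4b over Vps4a are highest at day 14, and Vps37b and Vps37c over Vps37a are lowest at day 3.

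Among the Vps37 subunits, Vps37a took a larger share at day 3. Vps37b was 15.6% of Vps37a in control, 26.7% at day 1, 10.6% at day 3, 22.8% at day 5, 37.8% at day 7 and 22.5% at day 14. Vps37c was 76% of Vps37a in control, 104% at day 1, 60.3% at day 3, 73.5% at day 5, 96% at day 7 and 94.2% at day 14. These shares are in TPM. At day 14 the log2 ratios lay above control by 0.53 (Vps37b) and 0.31 (Vps37c) in TPM, but by 0.36 and 0.16 in counts. The 4 day 3 ratios of Vps37c to Vps37a (log2 −0.63, −0.74, −0.81 and −0.74) lie below all 4 control ratios (−0.27, −0.40, −0.51 and −0.40). Chmp4c was 0.308% of Chmp4b in control, 0.115% at day 3 and 0.645% at day 14, on few counts.

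Other genes of the same routes were read from 9 lists, against the same share of all genes called at each day as given above. Of 10 genes of the retromer and of sorting out of endosomes, 9, 8, 8, 9 and 8 rose and 1 fell at each of days 1, 3, 5, 7 and 14, with a median log2 difference of 0.51, 0.27, 0.39, 0.55 and 0.45, and all 10 were called higher at each day with library totals. Snx2 and Snx6, membrane-bending sorting nexins, rose by log2 1.24 ± 0.048 and 0.96 ± 0.062 at day 7, and Vps29, a retromer core subunit, by 0.81 ± 0.061. Of 12 genes of late endosome fusion, which work with Rab7, 4, 5, 6, 3 and 3 rose and 6, 3, 4, 7 and 7 fell at the 5 days. With library totals 7, 10, 10, 9 and 8 were called higher, and 1, 1, 1, 2 and 1 lower. Rilp, an effector that Rab7 recruits, fell by 1.43 ± 0.086 on the log2 scale at day 5 (−0.79 with library totals), and Mon1a, part of the Rab7 activator, by 1.04 ± 0.093 at day 14 (−0.32). Vps11, a HOPS tethering subunit, was lower by −0.70 ± 0.049 at day 7, which was 0.06 with library totals. Of 13 lysosome genes, 8, 7, 9, 9 and 4 rose and 5, 4, 2, 4 and 5 fell, and with library totals 11, 12, 12, 12 and 12 were called higher and 0, 0, 1, 1 and 1 lower. Ctsd, a lysosomal protease, rose by 1.09 ± 0.016 at day 3, when it stood at 2390 CPM against 1120 in control, and Atp6v1a, a subunit of the proton pump, by 1.09 ± 0.049 at day 5. Tfeb, a transcription factor for lysosomal genes, rose by 0.20 ± 0.045 at day 3 and fell by 1.83 ± 0.052 on the log2 scale at day 7 (−1.06 with library totals).

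Of 17 effectors and regulators of Rab27, Rab35 and Rab11 that were tested, 6, 2, 7, 4 and 6 rose and 5, 7, 5, 6 and 6 fell at days 1, 3, 5, 7 and 14, and with library totals 9, 5, 11, 9 and 9 were called higher and 4, 5, 3, 4 and 6 lower. Sytl2, a Rab27 effector of the synaptotagmin-like family, stood at 8.87 CPM in control and 59.5 at day 14 (log2 2.74 ± 0.099). Myrip, another Rab27 effector, was lower at every day, by −2.74 ± 0.14 at day 7 (−1.98 with library totals). Tbc1d10c, which encodes a Rab GTPase-activating protein of blood cells, stood at 2.42 CPM in control, 8.19 at day 1 and 11.7 at day 5 and at 1.74, 0.835 and 0.543 at days 3, 7 and 14. The lymphocyte marker sum was also high at days 1 and 5, and its part was not tested. Of 10 genes of the syndecan, Arf6 and Pld2 arm, 5, 7, 5, 6 and 5 rose and 1, 2, 2, 3 and 2 fell, and with library totals 9, 7, 9, 9 and 9 were called higher and 0, 1, 0, 0 and 0 lower. Hpse, the heparanase that trims syndecan chains, rose at all 5 days, by 2.60 ± 0.13 at day 5, and Sdc4, a syndecan, rose by 1.09 ± 0.052 at day 3. Arf6, the GTPase that with Pld2 drives syntenin vesicles, rose at days 1, 3, 5 and 7, by 0.72 ± 0.068 at day 5.

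Of 8 tetraspanin and flotillin genes of exosomes, 3, 4, 2, 3 and 2 rose and 4, 4, 6, 4 and 6 fell, and with library totals 5, 5, 4, 5 and 6 were called higher and 2, 1, 3, 3 and 2 lower. Cd82 rose at all 5 days, by log2 1.85 ± 0.050 at day 1, and Tspan8 fell at all 5, by 2.44 ± 0.050 on the log2 scale at day 14 (−1.72 with library totals). Cd63, on late endosome membranes, stood at 142 CPM in control and 390, 399, 227, 234 and 220 after denervation, so its highest 2 days include day 3 but also day 1. Of 9 genes of fusion at the surface, 6, 5, 4, 5 and 5 rose and 2, 1, 3, 2 and 1 fell, and with library totals 8, 7, 8, 9 and 9 were called higher and 0 lower. Stxbp2, a syntaxin-binding protein of secretory cells, rose by 2.09 ± 0.14 at day 1, Ykt6, a SNARE, by 0.91 ± 0.044 at day 3, and Stx4a, a plasma membrane syntaxin, by 0.70 ± 0.062 at day 1. Of 11 sphingomyelinase and ceramide genes, 6, 6, 4, 3 and 3 rose and 3, 1, 3, 5 and 6 fell, and with library totals 10, 10, 10, 9 and 9 were called higher and 0, 0, 1, 0 and 0 lower. Cers6, a ceramide synthase, rose at all 5 days, by 2.02 ± 0.13 at day 14, and Cers1, the synthase typical of muscle, fell by 2.80 ± 0.22 on the log2 scale at day 5 (−2.16 with library totals).

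Of 16 ESCRT partners, 5, 8, 8, 7 and 8 rose and 5, 3, 5, 5 and 4 fell at the 5 days, and with library totals 14, 12, 14, 12 and 14 were called higher and 2, 3, 1, 1 and 1 lower. Lgals3, a galectin that recruits ALIX to damaged lysosomes, stood at 16.4 CPM in control and 199, 89.9, 179, 147 and 169 later. It is abundant in macrophages, whose marker sum was also lowest in control, and the part of those cells was not tested. Arrdc1, an arrestin-like protein that recruits Tsg101 to the plasma membrane, rose at days 1, 5 and 14, by 1.29 ± 0.11 at day 14.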

How the data were processed

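Poly(A)-selected libraries (NEBNext Ultra kit, NovaSeq6000, per the labels' protocols) of 24 gastrocnemius samples were read from the authors' deposited table. It holds expected counts, which are estimates of which 7.01% were not whole, and TPM, per the file headers. The aligner, quantifier, strand setting and genome build were not given in the sources used here. Coordinates come from GENCODE M21 (GRCm38), which may not be the authors' build.

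Expected counts were rounded, filtered with filterByExpr and scaled by TMM, and all 24 libraries, grouped by their titles, were fitted in 1 edgeR 4.0.16 quasi-likelihood model (R 4.3.3, limma 3.58.1). The 5 days against control, the 4 steps between neighbouring times and a test over all 6 groups were made, two-sided, with Benjamini-Hochberg adjusted p under 0.05 over the 14246 genes tested. Standard errors of log2 differences come from the fitted information and the posterior dispersion. The common biological coefficient of variation was 0.0389, and the scripts were tested on simulated data. TPM were used as the authors deposited them for levels between genes and for paralog ratios (TPM + 0.01, exact permutation test).

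Alternatives were DESeq2 1.42.0 size factors and its Wald test, library totals, upper quartile scaling, other filters, the replicate number as a block, only the compared groups, and each library left out. Leaving out days 1 and 5, the count-based paralog ratios and the rescaled extremes were added after seeing the data. Replicate numbers did not pair samples across groups. Within a group, libraries differed by more than counting noise (chi-square per gene 2.03 to 3.91), so none was a copy of another. These values cannot tell separate animals from separate preparations of the same RNA.

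Members and lists were chosen with earlier results of these data known. Per-library values were given for the 2 members of each set (4 in sets of 7 or more) with the largest passed difference and for paralog families. Up to 3 genes per list were named, those with the largest passed change, no overlap with control and a mean log2 CPM of at least 1. Tsg101, Chmp7, Ist1, Chmp2a, Rab35 and the other members described, and the comparison gene Nsmaf, were named after their values were seen. Vamp7 was not found by symbol, and some items are not reported here. Genes overlapping a neighbour (Vps37a, Vps37b, Mvb12b, Chmp4c, Ist1, Vps4a and Chmp1b, besides those named in the results) or with a processed copy have uncertain counts.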

Additional observations from a re-analysis of the deposited data

Results flagged for a closer look

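In 9 of 216 groups of 4 libraries (36 genes in 6 groups, or 4.17%), 1 library stood far from the other 3 by Dixon's criterion at 95% for the gap over the range. Chance marks about 1 in 20 groups. Mvb12b read 37.1 CPM in day 5 replicate 4 against 32.4 to 33.1 in the others. Vps25 read 56.1 in control replicate 1 against 52.3 to 52.5, and Ist1 read 63.9 in control replicate 4 against 68.8 to 69.7. Chmp5 read 53.5 in day 14 replicate 2 against 58.1 to 58.6. Vps4a read 138 in day 3 replicate 2 against 129 to 130, and Rab7 read 523 in day 3 replicate 4 against 499 to 502. Vta1 read 30.7 in day 7 replicate 1 against 27.3 to 27.7, and Rab27b read 1.89 in day 7 replicate 3 against 1.41 to 1.49. Sytl4 read 1.92 in day 5 replicate 2 against 0.993 to 1.09.

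In addition, 6 members passed with opposite signs against control at neighbouring times, and the difference between those times was tested in the same edgeR model. Rab7 changed by 0.98 ± 0.024 (log2, SE) from day 1 to day 3 and by −0.95 ± 0.024 from day 3 to day 5. Ist1 changed by 0.88 ± 0.044 and −0.71 ± 0.044 over the same steps, and Vps25 by 0.41 ± 0.048 and −0.47 ± 0.048. Vps37a changed by −0.69 ± 0.044 and Smpd3 by 1.76 ± 0.15 from day 5 to day 7. Vps36 changed by −0.36 ± 0.045 from day 7 to day 14. Adjusted p was at most 3.5e-09 in each. The place against control at 1 of the times turned with library totals in all of these pairs except Rab7 from day 1 to day 3.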

How the results depend on the processing

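Scaling by library totals was the alternative that moved the results most. It gave 33 members higher and 0 lower at day 1 against control, 1 lower at day 3, 32 and 0 at day 5, 33 and 2 at day 7, and 33 and 2 at day 14. Over all genes it called 10050 higher and 1899 lower at day 1, 7823 and 2595 at day 3, 10291 and 1680 at day 5, 10600 and 1732 at day 7, and 10604 and 1670 at day 14. Between times it gave 10 members higher and 14 lower from day 1 to day 3, 21 and 11 from day 3 to day 5 (3622 of all genes lower), and 20 lower from day 7 to day 14. Of single members, these called lower by TMM turned positive (log2). At day 1 they were Vps28 0.32, Vps25 0.38, Ist1 0.08 and Rab27a 0.01, and at day 3 Mvb12b 0.26. At day 5 they were Vps28 0.39, Mvb12a 0.37, Vps25 0.38, Ist1 0.33, Rab7 0.07 and Smpd3 0.04. At day 7 they were Vps37a 0.21, Vps37c 0.48, Mvb12a 0.50, Chmp7 0.53, Ist1 0.30 and Vps4a 0.55. At day 14 they were Hgs 0.11, Vps28 0.60, Vps37a 0.32, Vps37c 0.49, Mvb12a 0.56, Mvb12b 0.06, Vps25 0.46, Vps36 0.56, Chmp4b 0.42, Chmp6 0.47, Chmp7 0.51, Ist1 0.26, Vps4a 0.27 and Rab35 0.36. From day 1 to day 3, Mvb12a (−0.05), Snf8 (−0.01), Vps36 (−0.02) and Chmp2a (−0.05) turned, and from day 3 to day 5, Hgs (0.21, and 0.00 with upper quartile scaling), Vps28 (0.07), Chmp2a (0.18) and Chmp3 (0.08).

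Leaving out 1 library at a time gave 15 to 17 members higher and 5 to 6 lower at day 1, 22 to 24 and 1 to 3 at day 3, 17 to 18 and 7 at day 5, 19 and 9 to 10 at day 7, and 16 to 17 and 14 to 16 at day 14. The lowest count at day 3, 1 member lower, came without control replicate 1. The test over all groups kept 35 to 36 members called. Of the single-member calls, 2501 stayed, 54 were lost and 37 were gained.

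The replicate numbers did not pair the samples: the 36 correlations of same-numbered deviations ran from −0.0783 to 0.0792, and 0 were over 0.1. With the replicate number as a block, 16 members were higher and 6 lower at day 1, 23 and 3 at day 3, 18 and 7 at day 5, 19 and 9 at day 7, and 17 and 16 at day 14. Hgs from day 3 to day 5 (−0.06, adjusted p = 0.056, edgeR) and Chmp4c from day 7 to day 14 (0.63, adjusted p = 0.053, edgeR) no longer passed, and 3 other single calls were gained.

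Depth limits Rab27b, Chmp4c and Sytl4, with 0 to 64, 8 to 58 and 14 to 59 counts in a library, and 1 library decides several of their calls. Directions against control rest on the assumption that the bulk of genes stayed level, and library totals place the median gene higher at every time after denervation.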
